A study of Arabidopsis thaliana with 9 samples.

Results

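The genes described here are 44 nuclear loci of Arabidopsis that encode the light-harvesting proteins, the small subunit of Rubisco, and the nuclear-encoded subunits of both photosystems. They were taken by name from a list of loci, out of 32310 loci in the tables. The list was chosen with earlier results of these data known. The list holds 4 LHCA genes (antenna of photosystem I), 14 LHCB genes (antenna of photosystem II), 4 RBCS genes (Rubisco small subunit), 12 PSA genes (subunits of photosystem I), and 10 PSB genes (subunits of photosystem II). All 44 passed the filter on low counts.

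The photosystems are pigment-protein complexes of the thylakoid membrane. Photosystem II splits water in the lumen, photosystem I reduces ferredoxin in the stroma, and plastocyanin carries electrons toward photosystem I. Each photosystem is surrounded by chlorophyll-binding antenna proteins, and Rubisco fixes CO2 in the stroma. The reaction-center proteins and the large subunit of Rubisco are encoded in the chloroplast, whereas the antenna, the small subunit, and many peripheral subunits are encoded in the nucleus, often by several gene copies. Their mRNAs are among the most abundant of green tissue and are known to respond to light and to the circadian clock.

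Steady-state RNA was measured by strand-specific RNA-seq in 9 libraries of whole wild-type Col-0 seedlings, 3 from each of 3 groups: untreated seedlings kept at 22 °C (0 h), seedlings moved to 4 °C for 3 h, and seedlings moved to 4 °C for 12 h. A replicate pooled some 20 to 30 seedlings, with replicates on plates of their own, in long days (16 h light, nights at 18 °C). The cold began 4 h after lights on, so collection fell at ZT4 for the untreated seedlings, at ZT7 for those with 3 h of cold, and at ZT16, the end of the light period, for those with 12 h. The cold room was also dimmer. The effects of temperature, hour of day, and light level on these genes cannot be told apart. The labels give the tissue as seedlings of 10 d and the treatment as begun at 12 d.

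The libraries hold 15910839 to 24291683 reads assigned to transcripts. The 44 genes took 15.9% to 17.4% of these reads at 22 °C, 14.6% to 17.0% at 3 h, and 12.5% to 14.8% at 12 h. Of 8 root markers, 0 were called at 3 h, where 10.5% of all genes tested were. At 12 h 2 (BGLU21 and EXPA7) were called higher, where 15.5% of all genes were. The log2 fold changes of the 8 on the normalized count scale all lay above 0 at 3 h (median 0.31). An unadjusted edgeR p under 0.05 was found in 4 (28.1% of all genes). An edgeR adjusted p under 0.05 was found in 1, higher, as in 10.2% of all genes. At 12 h 5 of the 8 lay above 0 (median 0.11). There 4 had an unadjusted edgeR p under 0.05, where 55.2% of all genes did. An edgeR adjusted p under 0.05 was found in 3, all higher, as in 24.5% of all genes. The summed level of the root markers was 3087 to 4010.5 TPM (a level per transcript length, on a total that is the same in every library) at 22 °C, 3514 to 4486 TPM at 3 h, and 3193 to 3628 TPM at 12 h. The highest sum in each cold group was in the library with the lowest sum over the 44 genes (replicate 1 at 3 h and replicate 2 at 12 h), and at 22 °C its lowest value was in the library with the highest sum over the 44 genes (replicate 1). The part of the root markers in the results was not tested. In whole seedlings, fewer green cells and less RNA per green cell cannot be told apart. The 4 leaf markers outside the list (CA1, GOX1, GLYK, and SHM1) summed to 5067 to 5509 TPM at 22 °C, 4218 to 4637 TPM at 3 h, and 3727 to 4345 TPM at 12 h. On the normalized count scale their sum differed from 22 °C by −11.0% at 3 h and −9.45% at 12 h, without overlap. At 12 h their log2 fold changes were −0.25 (CA1), −0.24 (GOX1), 0.33 (GLYK), and 0.01 (SHM1). There GOX1 (lower) and GLYK (higher) had an edgeR adjusted p under 0.05, as did 24.9% and 24.5% of all genes in those directions. At either time 0 of the 4 were called, where 10.5% of all genes were at 3 h and 33.1% at 12 h. The 4 seed storage markers summed to 0.232 to 1.19 TPM over all libraries.

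After 12 h of cold 2 of the 44 genes, PSAD2 and LHCB4.3, were called lower. The summed level of the list depended on the scale. In TPM it was 137850 ± 10963 at 12 h against 169260 ± 6555 at 22 °C (SD, n = 3 each), a change of −18.6% with no overlap of libraries, whereas on normalized counts, the scale of the test, it differed by −3.15% with overlap. At 3 h the sum was 162380 ± 13543 TPM (−4.07%, and 0.263% on normalized counts), with overlap on both scales. A gene was called higher or lower when the adjusted p of edgeR's quasi-likelihood test was under 0.05 over all 20460 genes tested and the log2 fold change was at least 0.5 in size. After 3 h at 4 °C, 0 of the 44 genes were called, where 10.5% of all tested genes were called (3.47% lower and 7.05% higher). DESeq2 also called 0, and 5 of the 44 had an unadjusted p under 0.05 in edgeR, where 28.1% of all genes did. After 12 h, 2 of the 44 were called lower and 0 higher, where 33.1% of all tested genes were called (17.7% lower and 15.5% higher). DESeq2 likewise called 2 lower, and 7 had an unadjusted p under 0.05, where 55.2% of all genes did. Between 12 h and 3 h, 1 gene (PSAD2) was called lower and 0 higher, where 25.8% of all tested genes were called (14.8% lower and 11% higher). There 5 genes had an unadjusted p under 0.05, where 47.6% of all genes did.

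The estimates of the 44 genes filled a narrow range. The 95% interval of the log2 fold change lay within 0.5 of 0 for 42 of them at 3 h, 39 at 12 h, and 41 between 12 h and 3 h. Over all tested genes this held for 50.9% at 3 h, 31.7% at 12 h, and 37% between 12 h and 3 h. These shares are not matched for level. They include genes of low counts, whose intervals are wider, whereas the median level of the 44 genes at 22 °C was 2995 TPM. The median log2 fold change of the list was −0.04 at 3 h and −0.10 at 12 h, against −0.01 and −0.03 over all genes tested. Its estimates lay below 0 for 27 genes at 3 h and for 35 at 12 h. Single libraries move these values. With 1 library left out, the median at 3 h ran from −0.09 (without 3 h replicate 2) to 0.02 (without 3 h replicate 1), with 17 to 37 estimates below 0, and the median at 12 h from −0.14 (without 12 h replicate 1) to −0.02 (without 12 h replicate 2), with 25 to 39 below 0. Without 22 °C replicate 1 the medians were −0.01 at 3 h and −0.05 at 12 h. The medians without 3 h replicate 1 at 3 h and without 12 h replicate 2 at 12 h lay above those of all genes in the same fits. Without the fold minimum, 1 gene passed the p threshold at 3 h (lower, as did 6.52% of all genes), 6 at 12 h (all lower, as did 24.9%), and 3 between 12 h and 3 h (all lower, as did 20.8%). None passed it upward, where 10.2%, 24.5%, and 18.9% of all genes did.

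Counted by libraries on the normalized count scale, 8 of the 44 genes had all 3 libraries at 3 h below all 3 at 22 °C, where 16.7% of all genes did. These were LHCB4.2, LHCB4.3, RBCS1A, RBCS1B, RBCS2B, PSAD2, PSBS, and PSBY. At 12 h there were 7 such genes, where 28.9% of all genes did so, namely LHCB2.2, LHCB4.2, LHCB4.3, RBCS2B, PSAD1, PSAD2, and PSBX. Between 12 h and 3 h PSAD2 was the only one of the 44, where 25.6% of all genes did so. The opposite order, all cold libraries above, was found for 0 of the 44 genes in each comparison, where 17.2% of all genes had it at 3 h, 27.9% at 12 h, and 23.9% between 12 h and 3 h.

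**Figure D1:**
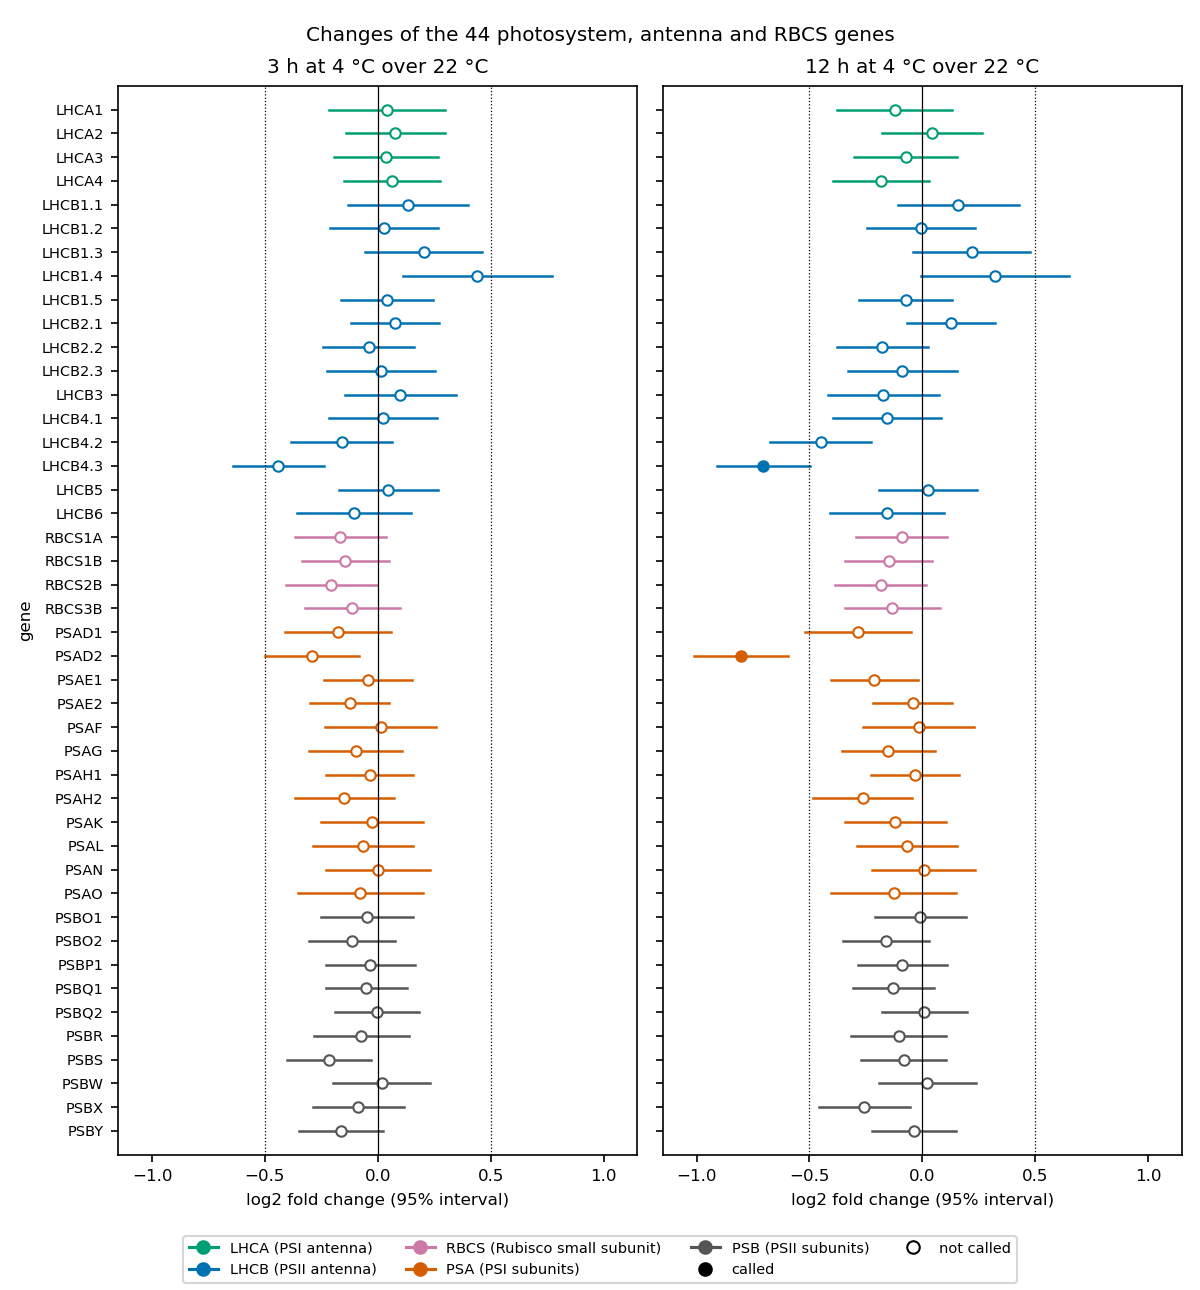
Log2 fold change (x axis) of each of the 44 genes (y axis, grouped and coloured by complex) at 3 h at 4 °C over 22 °C and at 12 h at 4 °C over 22 °C, with 95% intervals as bars. Filled points are called genes, dotted lines mark −0.5 and 0.5, and the 2 filled points, LHCB4.3 and PSAD2, are both at 12 h and both left of the dotted line.

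The photosystem I antenna (LHCA1 to LHCA4, which together form the belt on one side of photosystem I) had log2 fold changes of 0.04 to 0.08 at 3 h, none of them called. At 12 h its estimates ran from −0.18 (LHCA4) to 0.04 (LHCA2), and all 4 intervals lay within 0.5 of 0 at both times. LHCA4 was the most abundant of the 4, at 7898 TPM at 22 °C, 7910.3 TPM at 3 h, and 6033 TPM at 12 h on average. On the normalized count scale its log2 fold change between 12 h and 3 h was −0.25 ± 0.10 (SE, edgeR adjusted p = 0.061), which did not pass the threshold.

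The photosystem II antenna covers the widest range of levels and of changes. The major trimeric antenna is encoded by 5 LHCB1 and 3 LHCB2 genes and by LHCB3. LHCB1.1, LHCB1.2, and LHCB1.3 lie side by side on chromosome 1 (10472280 to 10479114, TAIR10.1), and LHCB1.4 and LHCB1.5 lie on chromosome 2 (14522524 to 14525918, TAIR10.1). LHCB1.3 was the second most abundant gene of the whole list, with 11525 TPM at 22 °C, 12976 TPM at 3 h, and 11795 TPM at 12 h. Its log2 fold change was 0.20 ± 0.12 (SE) at 3 h and 0.22 ± 0.12 at 12 h and was not called. The highest estimate of the list was that of LHCB1.4, chosen for mention after its values were seen. Its normalized CPM (counts per library size, scaled by edgeR's TMM factors) were 2451, 2181, and 1783 at 22 °C, 2187, 3241, and 3281 at 3 h, and 3093, 2226, and 2695 at 12 h. The groups overlap at both times through 3 h replicate 1 and 12 h replicate 2. The log2 fold change was 0.44 ± 0.15 (SE) at 3 h, with an edgeR adjusted p of 0.065, and 0.32 ± 0.15 at 12 h, with an adjusted p of 0.098. Without 3 h replicate 1 it became 0.60 and without 22 °C replicate 1 it became 0.55, and both pass the threshold at 3 h.

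The copies of LHCB1, LHCB2, and RBCS share stretches of identical sequence, so the split of reads between them is uncertain. In 11 of the 44 genes, 15.1% to 39.4% of all 31-base stretches of the transcripts also occur in transcripts of another locus. These are the 5 LHCB1 genes, LHCB2.1, LHCB2.2, RBCS1B, RBCS2B, RBCS3B, and LHCA2, whose partner AT5G28450 is outside the list. In 24 genes there was no such stretch, and in the other 9 it was under 5%. Summing neighbouring copies takes out the split between them, though LHCB1 copies of different chromosomes still share some stretches. Summed, LHCB1.1 to LHCB1.3 had a log2 fold change of 0.15 ± 0.12 (SE) at 3 h and 0.16 ± 0.12 at 12 h. LHCB1.4 with LHCB1.5 had 0.16 ± 0.11 at 3 h and 0.04 ± 0.11 at 12 h. LHCB2.1 with LHCB2.2 had 0.02 ± 0.09 at 3 h and −0.01 ± 0.09 at 12 h. None of these 3 sums was called at either time (edgeR adjusted p = 0.31 to 0.95).

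The minor antenna proteins LHCB4, LHCB5, and LHCB6 connect the trimers to the photosystem II core, and LHCB4 is encoded by 3 genes. LHCB4.3 was by far the least abundant gene of the list at 38.3 TPM at 22 °C, where the next lowest, PSAE2, had 931 TPM. In TPM, LHCB4.3 measured 39.96, 37.0, and 37.9 at 22 °C, 25.0, 27.3, and 29.5 at 3 h, and 21.6, 18.9, and 21.3 at 12 h. Every cold library lay below every library at 22 °C at both times, and every library at 12 h lay below every library at 3 h on this scale. On the normalized count scale its log2 fold change was −0.44 ± 0.09 (SE) at 3 h, with an edgeR adjusted p of 0.0036, and −0.70 ± 0.10 at 12 h, with an adjusted p of 1.8e-05. The change at 3 h passed the p threshold but not the fold minimum. The step between 12 h and 3 h, −0.26 ± 0.10 (edgeR adjusted p = 0.042), was not called. The lowest estimated count behind any of these values was 373 reads.

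LHCB4.2 had normalized CPM of 2395, 2264, and 2207 at 22 °C, 1829, 2155, and 2163 at 3 h, and 1903, 1409, and 1711 at 12 h, with all cold libraries lower than all libraries at 22 °C at both times. Its log2 fold change of −0.45 ± 0.11 (SE) at 12 h had an edgeR adjusted p of 0.0022 and missed the fold minimum, which it passed without 12 h replicate 1 (−0.54), with upper quartile factors (−0.58), and with library size alone (−0.68). LHCB4.1, the most abundant of the 3 copies, had 3399, 3357, and 3189 normalized CPM at 22 °C, 2935, 3596, and 3582 at 3 h, and 3546, 2678, and 2691 at 12 h. Its groups overlap at both times, and its log2 fold change was 0.02 at 3 h and −0.16 at 12 h (edgeR adjusted p = 0.26). LHCB5 and LHCB6 had log2 fold changes of 0.05 and −0.10 at 3 h and of 0.02 and −0.16 at 12 h, none of them called.

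The RBCS genes encode the small subunit that caps the Rubisco core. RBCS1A lies on chromosome 1, and RBCS1B, RBCS2B, and RBCS3B lie within 1 cluster on chromosome 5 (15376988 to 15385320, TAIR10.1). RBCS1A was the most abundant gene of the list, with 15822, 15611, and 15349 TPM at 22 °C, 12787, 13991, and 13676 TPM at 3 h, and 13445, 12105, and 12908 TPM at 12 h. All 6 cold libraries lay below the 3 libraries at 22 °C on this scale. On the normalized count scale the log2 fold changes of the 4 genes were −0.21 to −0.11 at 3 h and −0.19 to −0.09 at 12 h, and 0 of the 4 were called at either time. The 3 libraries at 3 h lay below those at 22 °C for 3 of the 4 genes on that scale, with RBCS3B as the exception, where 16.7% of all genes did so. At 12 h this held for RBCS2B only, where 28.9% of all genes did so. RBCS1B and RBCS2B share stretches of sequence, so they do not count separately. RBCS1B with RBCS2B and RBCS3B, summed, had a log2 fold change of −0.14 ± 0.10 (SE) at 3 h and −0.15 ± 0.10 at 12 h, neither called.

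Among the subunits of photosystem I, the gene that stood out was PSAD2. PSAD is the stromal subunit on which ferredoxin docks, and it is encoded by PSAD1 (chromosome 4, 1229031 to 1230164, TAIR10.1) and PSAD2 (chromosome 1, 753307 to 754262, TAIR10.1). The copies share under 1% of their 31-base stretches, so their reads are separable. PSAD2 had 947, 921, and 847 normalized CPM at 22 °C, 671, 755, and 792 at 3 h, and 561, 443, and 552 at 12 h. The 3 groups do not overlap, with 22 °C highest and 12 h lowest. Its log2 fold change was −0.29 ± 0.10 (SE) at 3 h, with an edgeR adjusted p of 0.051 (not called), and −0.80 ± 0.10 at 12 h, with an adjusted p of 4.7e-06. Between 12 h and 3 h it was −0.51 ± 0.10 (edgeR adjusted p = 0.00057), just past the fold minimum. That last call is lost with DESeq2 and with its size factors (−0.49 with each), without 3 h replicate 2 (−0.50), without 3 h replicate 3 (−0.46), and without 12 h replicate 2 (−0.41). The call at 12 h against 22 °C held under every alternative run apart from a fold minimum of 1, as did that of LHCB4.3.

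PSAD1 had 1915, 1728, and 1618 normalized CPM at 22 °C, 1371, 1645, and 1643 at 3 h, and 1499, 1206, and 1614 at 12 h. Its log2 fold change of −0.28 ± 0.11 (SE) at 12 h had an edgeR adjusted p of 0.043 and did not reach the fold minimum. PSAE1 and PSAE2 (another stromal subunit beside the ferredoxin site) had log2 fold changes of −0.21 and −0.04 at 12 h, and PSAH1 and PSAH2 (a membrane subunit on the side where mobile antenna binds) had −0.03 and −0.26. Of these 4, PSAH2 alone passed the p threshold at 12 h (edgeR adjusted p = 0.044), without the fold minimum. The remaining 6 are single genes. PSAF and PSAN (plastocyanin side), PSAG and PSAK (membrane subunits beside the antenna), and PSAL and PSAO (the side of PSAH) had log2 fold changes of −0.10 to 0.01 at 3 h and −0.15 to 0.01 at 12 h, and 0 of the 6 were called.

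The subunits of photosystem II were called at neither time. PSBO1, PSBO2, PSBP1, PSBQ1, and PSBQ2 encode the lumenal proteins that shield the water-splitting site, and their log2 fold changes were −0.11 to −0.0041 at 3 h and −0.16 to 0.01 at 12 h. PSBR, a further subunit on the lumenal side, was the most abundant PSB gene, with 9028 TPM at 22 °C, 8072 TPM at 3 h, and 6603 TPM at 12 h. Its log2 fold change was −0.07 at 3 h and −0.10 at 12 h. PSBX, a small membrane subunit, was at −0.26 ± 0.09 (SE) at 12 h (edgeR adjusted p = 0.034, under the fold minimum). PSBS, which senses lumen acidity and triggers dissipation of excess light energy, had 1636, 1617, and 1718 normalized CPM at 22 °C, 1364, 1494, and 1422 at 3 h, and 1564, 1385, and 1748 at 12 h. Its 3 h libraries all lay below those at 22 °C, its 12 h libraries overlapped with them, and its log2 fold changes of −0.22 ± 0.09 (SE) at 3 h (edgeR adjusted p = 0.12) and −0.08 ± 0.09 at 12 h were not called. PSBW and PSBY, 2 further small membrane subunits, had 0.02 and −0.16 at 3 h and 0.02 and −0.04 at 12 h.

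Summed over a complex, the level in TPM was lower at 12 h than at 22 °C for each of the 5 complexes, with no overlap of libraries. The PSA sum was 23067 ± 2352 TPM at 12 h against 30802 ± 1721 TPM at 22 °C (SD, n = 3 each), a change of −25.1%. The PSB sum was 23215 ± 1392 TPM at 12 h against 29888 ± 962 TPM at 22 °C (−22.3%), and the RBCS sum was 24971 ± 1568 TPM against 31516 ± 256 TPM (−20.8%). The LHCA sum was 14764 ± 1104 TPM at 12 h against 18423 ± 759 TPM at 22 °C (−19.9%), and the LHCB sum was 51831 ± 4795 TPM against 58628 ± 2877 TPM (−11.6%). At 3 h the RBCS sum (27670.0 ± 1475 TPM, −12.2%) and the PSB sum (27408 ± 1703 TPM, −8.3%) lay below all libraries at 22 °C. The PSA (−8.61%), LHCA (0.318%), and LHCB (3.48%) sums at 3 h overlapped with 22 °C. Without 12 h replicate 2 the LHCB sum at 12 h differed by −6.89%. Without 3 h replicate 1 the sums at 3 h differed by −5.04% (PSB) and −4.62% (PSA), and without 22 °C replicate 1 the PSA sum by −5.7%. With single libraries left out, the LHCA sum at 3 h ran from −3.08% to 5.72%, the LHCB sum from −0.411% to 9.96%, and the sum of all 44 genes from −6.41% (without 3 h replicate 3) to 0.554% (without 3 h replicate 1), so none of these 3 has a stable sign. The other sums at 12 h moved by less than 1.5 times.

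The size of these differences depends on the scale, so both scales are given. TPM are shares of a library, whereas the normalized counts are scaled so that the typical gene is level. The TMM factors were 1.05 to 1.07 at 22 °C, 1.01 to 1.07 at 3 h, and 0.889 to 0.946 at 12 h. On normalized CPM the sums at 12 h differed from 22 °C by −9.69% (PSA), −5.07% (PSB), −7.89% (RBCS), −7.19% (LHCA), and 2.38% (LHCB), and the libraries overlapped for all 5. The direction of the LHCB sum at 12 h thus flips between the scales. Scaled by library size alone, an alternative chosen after the data were seen, the median log2 fold change of all tested genes at 12 h was −0.25 and that of the 44 genes −0.32. With library size alone 4 genes of the list were called lower at 12 h, LHCB4.2 (−0.68) and PSAD1 (−0.51) in addition to the 2 above, and 0 were called higher. Of all 20460 genes tested, 5707 were called lower and 2273 higher with library size alone, against 3616 and 3166 with TMM factors. Of all genes called at 12 h, 46.7% were higher with TMM factors, 35.1% with upper quartile factors, and 28.5% with library size alone. Between 12 h and 3 h the share was 42.6% with TMM factors and 26.0% with library size alone.

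**Figure D2:**
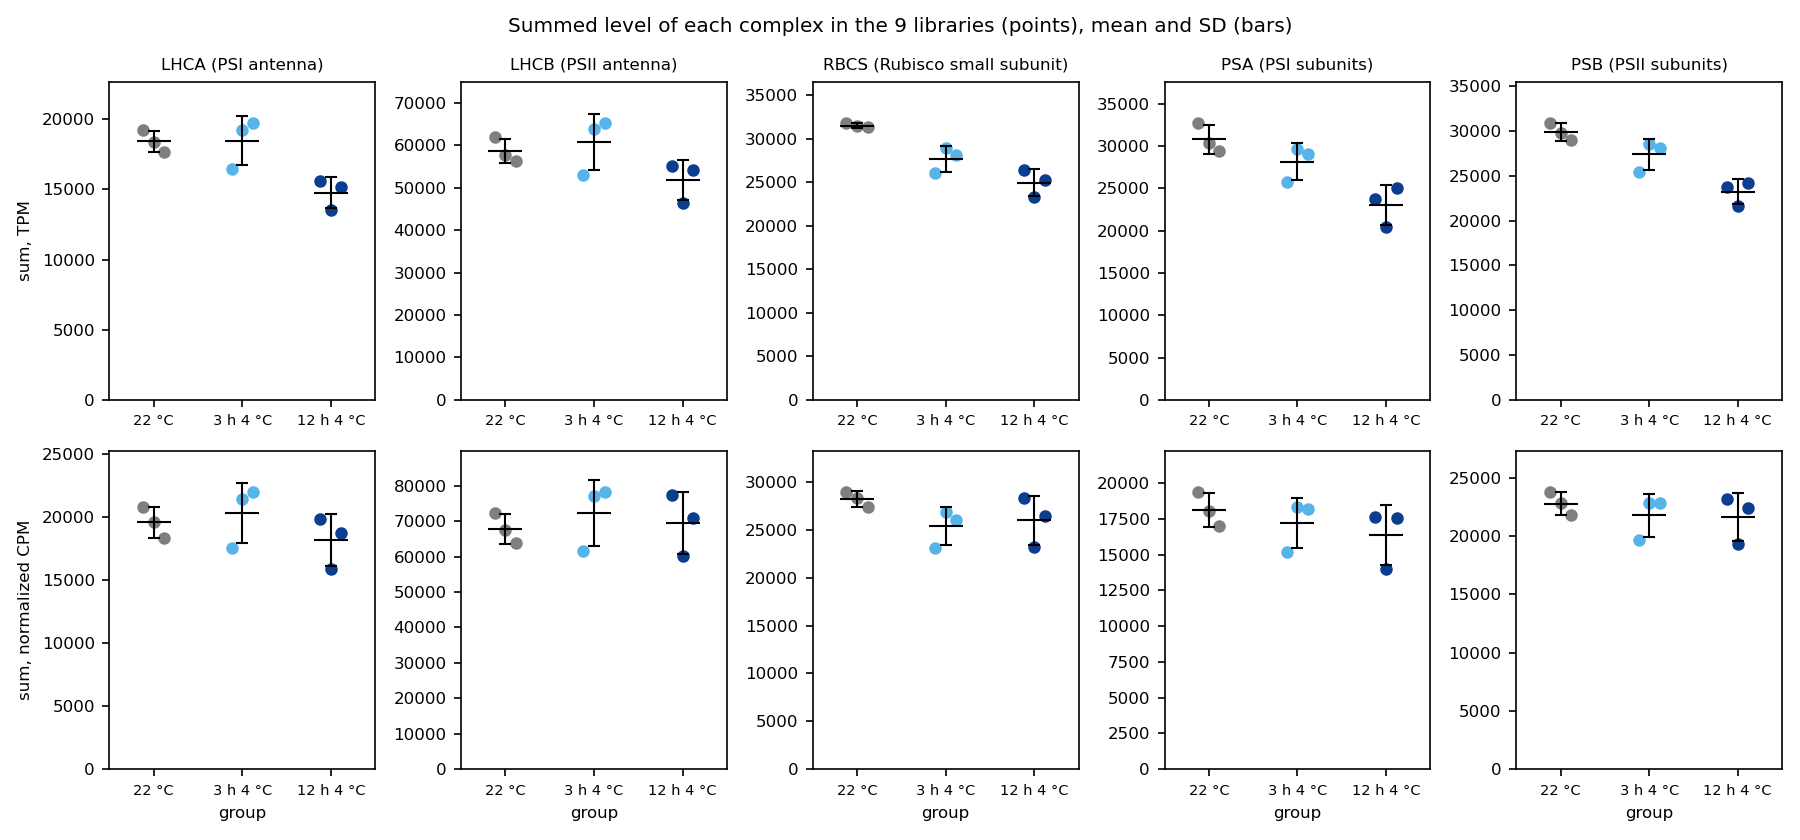
Sum over the genes of each complex in the 9 libraries (points) at 22 °C and after 3 h or 12 h at 4 °C, with mean and SD, in TPM (upper row) and normalized CPM (lower row). In TPM the 12 h points lie below the 22 °C points in all 5 panels, and in normalized CPM they overlap in all 5.

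A ratio of complexes within a library does not depend on the library's scaling factor. It can still differ between TPM and normalized CPM, since only TPM are divided by Salmon's effective transcript length. That length is not the same in every library. It exceeded the transcript's own length in 28.3% (3 h replicate 3) to 37.2% (12 h replicate 3) of transcripts. How far this moves the ratios in TPM was not tested. At 12 h the mean ratio of LHCA to PSA was higher than at 22 °C by 7.21% in TPM and by 2.92% on normalized CPM. The LHCB sum over the PSB sum, both in TPM, was 2.00, 1.94, and 1.94 at 22 °C, 2.08, 2.23, and 2.32 at 3 h, and 2.32, 2.14, and 2.23 at 12 h. In all 6 cold libraries the summed antenna level per summed subunit level of photosystem II was thus above that of the 3 libraries at 22 °C. The antenna genes did not move alike. In TPM the LHCB1 copies summed differed from 22 °C by 8.39% at 3 h and −4.29% at 12 h, with overlap at both times. The LHCB2 copies summed differed by −0.362% at 3 h, with overlap, and −15.9% at 12 h, without overlap. The mean ratio was higher by 12.7% at 3 h and by 13.7% at 12 h, and on normalized CPM, where the ratio was also free of overlap, by 11.3% and 7.7%. The LHCA sum over the PSA sum in TPM was 0.656 ± 0.020 at 3 h and 0.642 ± 0.030 at 12 h, against 0.598 ± 0.0098 at 22 °C (SD, n = 3 each), without overlap at either time. On normalized CPM the libraries at 12 h overlapped with 22 °C for this ratio. The RBCS sum over the PSB sum was 1.01 ± 0.012 at 3 h and 1.08 ± 0.033 at 12 h, against 1.055 ± 0.026 at 22 °C, and only the libraries at 3 h lay apart from those at 22 °C. The RBCS sum over the LHCB sum was 0.458 ± 0.030 at 3 h and 0.483 ± 0.018 at 12 h, against 0.538 ± 0.022 at 22 °C, lower in all 6 cold libraries on both scales. The PSA sum over the PSB sum, 0.992 ± 0.043 at 12 h and 1.03 ± 0.025 at 22 °C, overlapped at both times. These ratios are given as descriptions and carry no test.

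**Figure D3:**
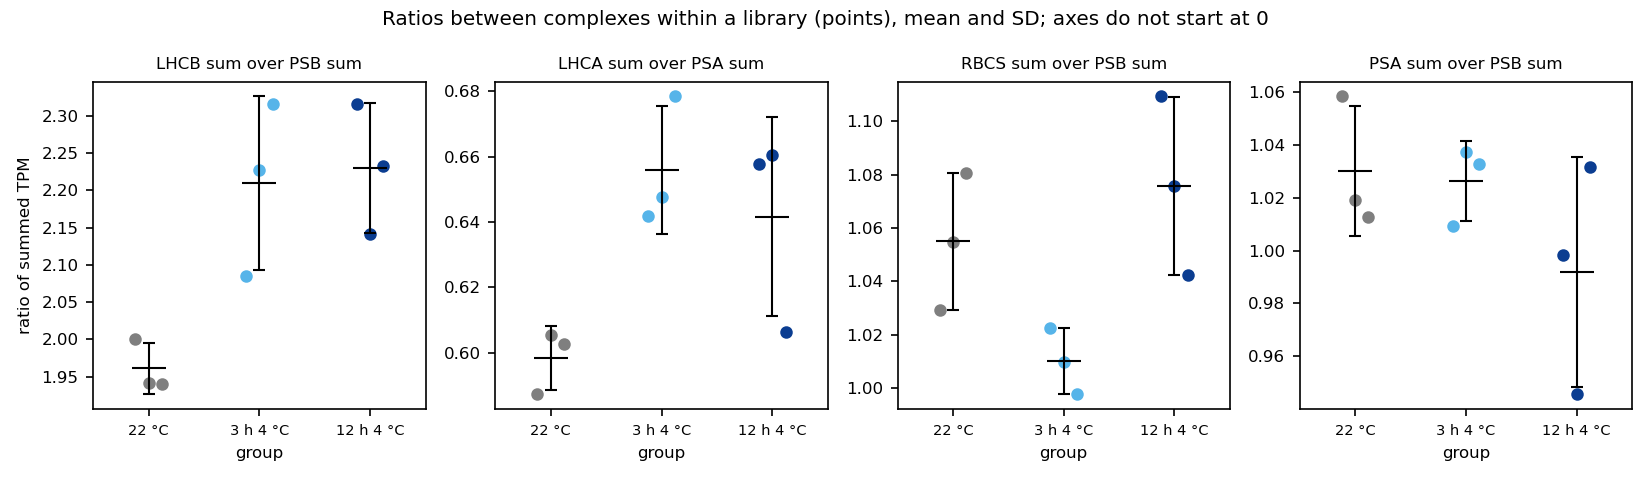
Ratio of summed TPM between complexes in each of the 9 libraries (points) at 22 °C and after 3 h or 12 h at 4 °C, with mean and SD. For LHCB over PSB, the 22 °C points lie at 1.94 to 2.00 and the 6 cold points at 2.08 to 2.32.

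Copies of the same subunit were compared by the log2 ratio of their normalized CPM within a library. In all, 7 families were compared at 2 times by an exact permutation test, two-sided, for which 3 against 3 libraries cannot give a p below 0.1. The value for PSAD2 to PSAD1 was −1.02, −0.91, and −0.93 at 22 °C, −1.03, −1.12, and −1.05 at 3 h, and −1.42, −1.45, and −1.55 at 12 h. The difference from 22 °C was −0.12 at 3 h and −0.52 at 12 h, each with an exact p of 0.1 (0.14 adjusted over the 14 comparisons) and with no overlap. On TPM the 3 h libraries overlapped with 22 °C (difference −0.08, exact p = 0.3) and the 12 h libraries did not (−0.57). On a linear scale, PSAD2 had 0.374, 0.367, and 0.342 normalized reads per PSAD1 read at 12 h, against 0.495, 0.533, and 0.523 at 22 °C.

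LHCB4.3 relative to LHCB4.1 and LHCB4.2 together was −7.01, −7.09, and −7.02 at 22 °C, −7.39, −7.49, and −7.41 at 3 h, and −7.56, −7.45, and −7.40 at 12 h. The difference from 22 °C, −0.39 at 3 h and −0.43 at 12 h (exact p = 0.1 at each time), was free of overlap, whereas the libraries at 3 h and 12 h overlapped. 
The other families differed by less. PSAH1 had 844, 818, and 799 normalized CPM at 22 °C, 719, 868, and 813 at 3 h, and 860.1, 706, and 841 at 12 h. PSAH2 had 1246, 1132, and 1070.3 at 22 °C, 955, 1099.8, and 1056 at 3 h, and 995, 804, and 1073 at 12 h. Both overlap between groups, but their log2 ratio differed from 22 °C by −0.11 at 3 h and by −0.23 at 12 h, each without overlap (exact p = 0.1). PSAE1 had 1832, 1782, and 1641 normalized CPM at 22 °C, 1529, 1801, and 1773 at 3 h, and 1655, 1385, and 1496 at 12 h. PSAE2 had 283, 268, and 249.5 at 22 °C, 224, 252, and 258 at 3 h, and 274, 237, and 265 at 12 h. Their log2 ratio differed from 22 °C by −0.08 at 3 h and by 0.17 at 12 h, both without overlap (exact p = 0.1), and on TPM the libraries at 3 h overlapped.

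In photosystem II, PSBO1 had 4517, 4362, and 4166 normalized CPM at 22 °C, 3722, 4476, and 4430.1 at 3 h, and 4612, 3875, and 4483 at 12 h. PSBO2 had 1679.7, 1647, and 1569 at 22 °C, 1387, 1572, and 1563 at 3 h, and 1584, 1288, and 1508 at 12 h. The log2 ratio of PSBO2 to PSBO1 differed by −0.07 at 3 h, with overlap (exact p = 0.2), and by −0.15 at 12 h, without overlap (exact p = 0.1). PSBQ1 had 1285, 1293, and 1249 normalized CPM at 22 °C, 1144, 1282, and 1268 at 3 h, and 1290.1, 1061, and 1151 at 12 h. PSBQ2 had 1531, 1472, and 1377 at 22 °C, 1371, 1539, and 1457 at 3 h, and 1641, 1352, and 1412 at 12 h. The log2 ratio of PSBQ2 to PSBQ1 differed by 0.05 at 3 h, with overlap (exact p = 0.2), and by 0.14 at 12 h, without overlap (exact p = 0.1). RBCS1A relative to the other 3 RBCS genes differed by −0.02 at 3 h and 0.06 at 12 h (exact p = 0.3 for each) with overlap at both times, and on TPM by 0.11 at 12 h without overlap (exact p = 0.1).

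**Figure D4:**
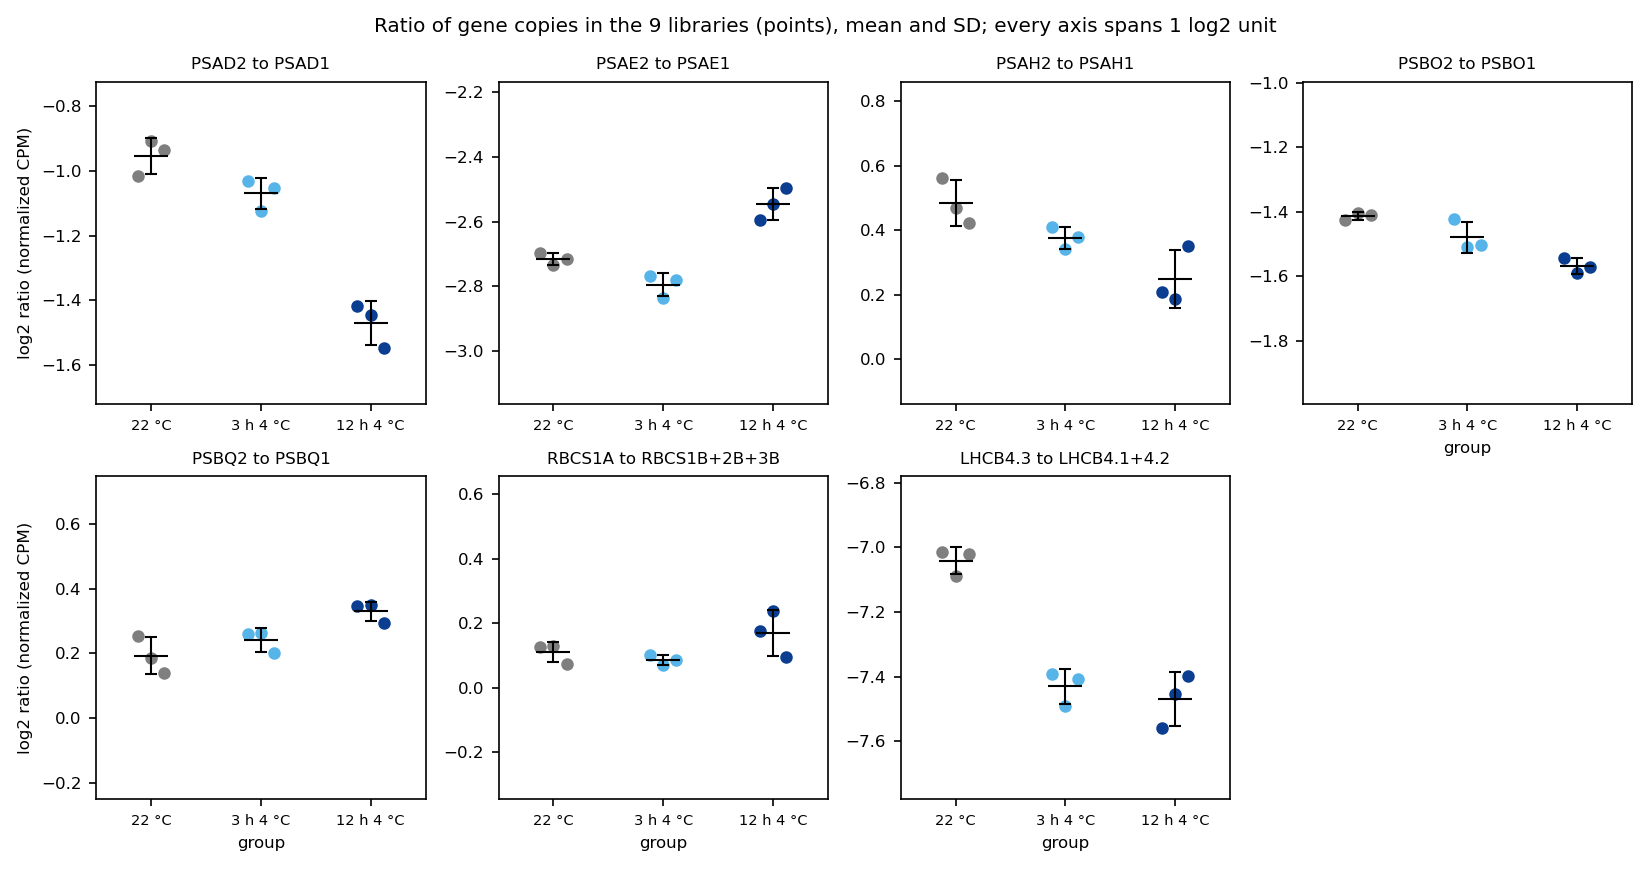
Log2 ratio of gene copies (y axis, normalized CPM, every panel spanning 1 log2 unit) in each of the 9 libraries (points) at 22 °C and after 3 h or 12 h at 4 °C, with mean and SD. PSAD2 to PSAD1 lies at −1.02 to −0.91 at 22 °C and at −1.55 to −1.42 at 12 h, and LHCB4.3 to LHCB4.1 and LHCB4.2 is lower at 3 h and 12 h than at 22 °C.

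Several of the loci have more than 1 annotated transcript. In the reference, 15 of the 44 loci have minor transcripts beside the main one, 20 in all, and 5 of these keep at least 1 intron that is spliced out of the main transcript (in LHCA1, LHCA3, LHCB4.2, RBCS1B, and PSBS). The share of transcripts was tested in the 9 member loci whose minor transcripts had enough reads. With the required shift of 10 percentage points, edgeR's diffSpliceDGE called 0 of these loci at 3 h and 0 at 12 h, where 1.31% and 4.01% of 6739 loci were called. The largest shift was 2.76 points at 3 h and 3.00 points at 12 h. At an unadjusted p under 0.05 there were 3 loci at 3 h and 5 at 12 h, where 8.7% and 15.7% of all loci were. Without the required shift, 2 loci had an adjusted p under 0.05 at 3 h (LHCA3 and LHCB4.2) and 4 at 12 h (with LHCA1 and PSBS in addition), where 1.69% and 4.99% of all loci did. In all 4 loci the transcript that changed is one that keeps an intron. They were chosen for description after their values were seen.

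The coding part of a kept intron is printed 5′ to 3′ on the strand of the gene for LHCB4.2, LHCA3, LHCA1, and PSBS. In LHCB4.2 this is the whole intron, and in the other loci it is only a part of the kept sequence. Noncoding parts of kept introns are not printed, nor is the first kept intron of LHCA3. The sequences are those of the RefSeq genome (TAIR10.1). Capitals mark the GT and AG at the ends of the intron and, where the reading frame starts or stops inside the intron, the start or stop codon.
LHCB4.2 (AT3G08940.1, whole intron, chr3:2718218-2718302, plus strand): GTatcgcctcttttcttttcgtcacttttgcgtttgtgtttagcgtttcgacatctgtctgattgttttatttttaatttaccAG
LHCA3 (AT1G61520.2, end of the last of 2 kept introns, chr1:22700493-22700533, plus strand): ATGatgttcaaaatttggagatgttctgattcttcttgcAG
LHCA1 (AT3G54890.4, start of the last intron, chr3:20339881-20339939, minus strand): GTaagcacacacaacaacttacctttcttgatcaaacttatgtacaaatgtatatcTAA
PSBS (AT1G44575.2, start of the last intron, chr1:16872481-16872548, plus strand): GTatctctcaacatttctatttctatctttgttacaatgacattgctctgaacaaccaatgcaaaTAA
In LHCA1 and PSBS the annotated frame of the intron-keeping transcript thus ends in a TAA within the intron. In LHCA3 its annotated start codon lies within the intron, and in LHCB4.2 the frame runs through the whole intron of 85 bases.

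The share of the LHCB4.2 locus in its intron-keeping transcript was 3.50%, 3.64%, and 2.77% of TPM at 22 °C, 0.626%, 0.510%, and 0.491% at 3 h, and 0.0605%, 0.335%, and 0.528% at 12 h. These shares rest on 3800 estimated reads over the 3 libraries at 22 °C, 589 at 3 h, and 185 at 12 h. Every cold library lay below every library at 22 °C at both times (edgeR diffSpliceDGE adjusted p = 0.0044 at 3 h and 0.00037 at 12 h). At 3 h the edgeR adjusted p was just over the threshold without 3 h replicate 2 (0.056) or 3 h replicate 3 (0.051). The LHCA3 transcript held 1.76%, 1.95%, and 1.72% at 22 °C, 0.281%, 0.216%, and 0.284% at 3 h, and 0.136%, 0.142%, and 0.0723% at 12 h. Its mean share was 6.95 times lower at 3 h and 15.5 times lower at 12 h, with an edgeR adjusted p of 1.2e-05 at 3 h and 4.7e-07 at 12 h, under 0.05 in all 11 alternatives to the fit at both times. The locus itself did not change by a called amount (log2 fold change 0.04 at 3 h and −0.07 at 12 h).

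The LHCA1 transcript held 0.858%, 0.804%, and 0.664% at 22 °C, 0.504%, 0.338%, and 0.461% at 3 h, and 0.139%, 0.191%, and 0.179% at 12 h. The groups do not overlap, and the edgeR adjusted p was 0.15 at 3 h and 0.00011 at 12 h. At 12 h it was under 0.05 in all 11 alternatives to the fit, for LHCA1 as for LHCB4.2. The PSBS transcript held 1.496%, 1.1%, and 1.44% at 22 °C, 0.339%, 0.595%, and 1.08% at 3 h, and 0.319%, 0.274%, and 0.315% at 12 h. Its 3 h libraries spread over a wide range, up to just below the lowest library at 22 °C. The edgeR adjusted p was 0.83 at 3 h. At 12 h it was 0.011, but it was under 0.05 in only 4 of 11 alternatives (0.020 to 0.19). The intron-keeping transcript of RBCS1B, at 0.257% at 22 °C, 0.312% at 3 h, and 0.0940% at 12 h, did not pass the test (edgeR adjusted p = 1 at 3 h and 0.27 at 12 h). These shares are Salmon's estimates, whose error of assignment was not measured here. The main spliced LHCB4.2 transcript, at 1312 TPM at 12 h against 1968 TPM at 22 °C, made up most of the locus, whose total was 1316 TPM at 12 h against 2035 TPM at 22 °C.

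**Figure D5:**
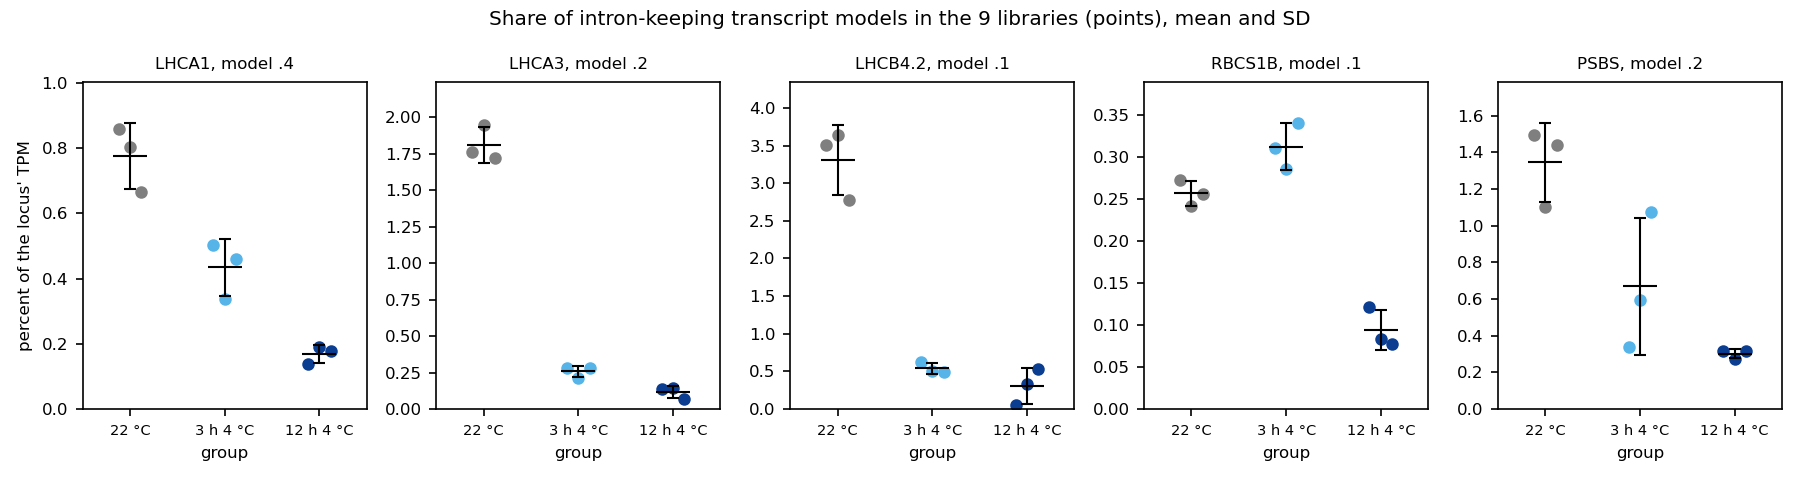
Share of the locus' TPM (y axis, percent) in the transcript that keeps an intron, for 5 loci in each of the 9 libraries (points) at 22 °C and after 3 h or 12 h at 4 °C, with mean and SD. In LHCA1, LHCA3, LHCB4.2, and PSBS all cold points lie below the 22 °C points, and in RBCS1B only the 12 h points do.

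The neighbouring parts of the pathway were read from lists of other photosynthesis genes. Of 13 genes of electron transport and ATP synthase, 1 was called lower at 3 h (3.47% of all genes were) and 2 at 12 h (17.7% of all genes were), and 0 were called higher. An edgeR adjusted p under 0.05 was found in 5 at 3 h, all lower (6.52% of all genes). At 12 h it was found in 6 lower (24.9%) and 1 higher (24.5%). The higher one was FNR2 (0.40 ± 0.09, SE, edgeR adjusted p = 0.0011), under the fold minimum. FD1 and PETE1, the minor leaf copies of ferredoxin and plastocyanin, were those called. FD1 had a log2 fold change of −0.51 ± 0.10 (SE) at 3 h (edgeR adjusted p = 0.0019) and −0.85 ± 0.10 at 12 h (edgeR adjusted p = 4.1e-06). PETE1 had 217, 205, and 191 normalized CPM at 22 °C, 141, 170.5, and 176 at 3 h, and 121, 104, and 113 at 12 h, without overlap between any of the groups. Its log2 fold change was −0.33 ± 0.09 at 3 h, which was not called, and −0.86 ± 0.09 at 12 h (edgeR adjusted p = 1.2e-06). The major copies FD2 and PETE2 had −0.02 and −0.08 at 3 h and −0.05 and −0.18 at 12 h and were not called. Of 14 genes of the Calvin cycle with Rubisco activase, 0 were called by edgeR at either time, with an unadjusted p under 0.05 in 11 genes at 3 h (28.1% of all genes) and 8 at 12 h (55.2%). An edgeR adjusted p under 0.05, all lower, was found in 7 at 3 h (6.52% of all genes) and 6 at 12 h (24.9%). All 14 estimates lay below 0 at both times, between −0.39 and −0.14 at 3 h and between −0.47 and −0.06 at 12 h.

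Of 4 regulators of photosynthesis genes (GLK1, GLK2, GNC, and CGA1), CGA1 was called, at 12 h only. CGA1, a GATA factor, measured 8.44, 9.72, and 12.5 normalized CPM at 22 °C, 10.5, 9.13, and 9.63 at 3 h, and 3.83, 3.84, and 2.66 at 12 h, with a log2 fold change of −1.55 ± 0.19 (SE) at 12 h (edgeR adjusted p = 4.2e-06). Of 8 further relatives of the LHC and photosystem families, PSBP2 was called lower at 3 h (−1.10 ± 0.27) and at 12 h (−0.79 ± 0.27), and LHCA6 at 12 h (−0.56 ± 0.10). Over all genes tested, 3.47% were called lower at 3 h and 17.7% at 12 h. The clock genes, given for the difference in time of day between the groups, moved by more. TOC1, an evening gene, had a log2 fold change of 2.27 ± 0.16 at 3 h and 4.64 ± 0.17 at 12 h, and GI had 0.98 ± 0.12 and 3.30 ± 0.12. Of the 5 clock genes, 2 were called higher at 3 h, and 4 higher and 1 lower (LHY, −0.51 ± 0.08) at 12 h. Over all genes tested, 7.05% were called higher at 3 h and 15.5% at 12 h. For the 44 genes the part of time of day and that of temperature cannot be told apart.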

How the data were processed

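RNA-seq libraries of Col-0 seedlings (3 untreated at 22 °C, 3 after 3 h and 3 after 12 h at 4 °C) were processed by the authors with SortMeRNA 4.3.4, Trimmomatic 0.32, FastQC 0.11.9, and Salmon 1.6.0 against ARAPORT11 transcripts. Salmon's options are not given in the sources used here. The deposited tables give, per transcript, estimated counts and TPM made by the authors with Salmon, 1 table per library, with 53467 transcripts and no pooling. Estimated counts and TPM were summed over the transcripts of each of 32310 loci, and the sums of counts were rounded.

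Differential expression was tested in edgeR 4.0.16 (R 4.3.3, limma 3.58.1) by the quasi-likelihood test with filterByExpr, TMM factors, and 1 fit over 9 libraries, with Benjamini-Hochberg adjustment over 20460 genes. Intervals are 95% and SE are on the log2 scale. Transcript usage was tested with diffSpliceDGE and Simes p values over 6739 loci. Ratios of gene copies were compared by exact permutation, with Benjamini-Hochberg adjustment in SciPy 1.17.1, and sums over a complex carry no test. Alternatives included DESeq2 1.42.0, other scaling factors, other filters, summed copies, and leaving out each library. Both tests were tested on simulated data. Libraries with 15910839 to 24291683 reads gave 373 to 433827 reads per gene of the list in a library.

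Shared stretches (31 bases) and coordinates come from the RefSeq TAIR10.1 genome and annotation, and the transcript tables carry no coordinates of their own. Replicates are pools of seedlings from separate plates, and p values measure the spread between these pools. The genes and the lists were chosen with earlier results of these data known. Values in every library are given, by rule, for called genes with the largest change (up to 3 per direction and comparison), genes called against the majority of their complex, and the families of gene copies, and from other lists up to 3 called genes with the smallest p are named per comparison. Any other gene singled out was chosen after its values were seen.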

Additional observations from a re-analysis of the deposited data

Results flagged for a closer look

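Of the 44 genes and the lists of other photosynthesis genes (13, 14, 4, and 8 genes), 3 were called in the direct test of 12 h against 3 h. For these the change against 22 °C was not the same at both times. Over all genes tested, 25.8% were called there (14.8% lower and 11% higher). Further genes passed the p threshold but not the fold minimum of 0.5. These were LHCB4.2, LHCB4.3, FD1, ATPD, LHCA6, and PSB27 (lower) and FNR2 (higher, 0.39, edgeR adjusted p = 0.0018). PSAD2 had a log2 difference of −0.5119 between 12 h and 3 h (SE 0.10, edgeR adjusted p = 0.00057), lower in all 3 libraries at 12 h than in all 3 at 3 h. This call was lost in 5 of 20 alternatives, among them DESeq2 and leaving out 12 h replicate 2 (−0.41). PETE1, the minor plastocyanin gene, had −0.5253 (SE 0.09, edgeR adjusted p = 0.00028), and CGA1, a GATA factor, had −1.4919 (SE 0.19, edgeR adjusted p = 9.5e-06), both likewise without overlap. Of the 5 clock genes, 4 were called higher in the same test, and of the 8 root markers 1 was called lower. The root marker BGLU21 (0.37, edgeR adjusted p = 0.025) passed the p threshold but not the fold minimum. TOC1 had 2.3733 (SE 0.15, edgeR adjusted p = 3.4e-09), GI 2.3133 (SE 0.12, edgeR adjusted p = 2.9e-10), CCA1 0.939 (SE 0.08, edgeR adjusted p = 1.8e-07), and PRR7 0.7984 (SE 0.10, edgeR adjusted p = 1.2e-05). TIP2;3, a root marker that encodes a tonoplast aquaporin, had −0.8873 (SE 0.21, edgeR adjusted p = 0.0035).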

How the results depend on the processing

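No called gene turned its direction under any alternative, whereas some sums, which carry no test, did so (LHCB at 12 h on normalized CPM, and LHCA, LHCB, and all 44 genes at 3 h when single libraries were left out or, for all 44, on normalized CPM). After 3 h, the 0 called genes of the list became 1 without the fold minimum and 0 to 1 when single libraries were left out, with LHCB1.4 called without 22 °C replicate 1 or 3 h replicate 1. After 12 h, the 2 called genes became 6 without the fold minimum, 0 with a minimum of 1, 3 with upper quartile factors (LHCB4.2 in addition), 4 with library size alone (chosen after the data were seen), and 2 to 3 when single libraries were left out. Of all 20460 genes tested, 3616 were called lower at 12 h in the main fit and 5100 without the fold minimum. With a minimum of 1 there were 1691, with upper quartile factors 4739, and with library size alone 5707. Between 12 h and 3 h, the 1 called gene became 0 with DESeq2's Wald test, 0 with its size factors, 0 with a fold minimum of 1, 3 without one, and 0 to 1 when single libraries were left out. PSAD2 at 12 h ranged from −1.03 to −0.70 and LHCB4.3 from −0.93 to −0.63 over 20 alternatives. The loci with a shift in transcript usage became 4 without the minimum shift. On TPM, the log2 ratio of PSAE2 to PSAE1 at 3 h was −0.04 (−0.0381) and that of PSAH2 to PSAH1 at 12 h was −0.35. On normalized CPM, the sums at 12 h differed from 22 °C by −7.19% (LHCA), 2.38% (LHCB), −7.89% (RBCS), −9.69% (PSA), −5.07% (PSB), and −3.15% (all 44 genes). The cause of these shifts was not tested. With a replicate block the counts were 0 at 3 h, 2 at 12 h, and 1 between 12 h and 3 h, as without it. Deviations from the group means correlated with r from −0.20 to 0.11 between libraries of the same number. With 3 libraries in a group these values cannot exclude a shared batch. The labels do not say what the number marks beyond a biological replicate. Low depth limits LHCB4.3 (from 373 reads) and the intron-keeping transcripts (from 142 reads over 3 libraries).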
